A study of Mus musculus with 221 samples.

Results

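The early blood progenitors of the aorta-gonad-mesonephros region (AGM) and of the yolk sac (YS) of the mouse were compared gene by gene and isoform by isoform, in single cells read by nanopore sequencing. The members were the cells whose sample names carry the AGM progenitor cluster c5 or the YS progenitor clusters p1 and p2 and whose total of estimated counts reached 17595, the library-size limit that the methods of the study define. This rule gave 58 cells, out of 60 progenitor cells before the limit and of 208 cells past the limit among all 221 cells of the series. They were 21 cells of c5, 17 of p1 and 20 of p2, and p1 and p2 together (37 cells) are called YS progenitors here.

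Cells had been sorted from embryos of Gfi1 GFP and Runx1b RFP reporter mice, C57BL/6JOlaHsd strains bred with Hsd:ICR (CD-1) females, and their Smart-seq2 complementary DNA (cDNA) was barcoded and read on a nanopore instrument. The gates that the labels give are those of hemogenic endothelium (HE): RUNX1+, KIT-, CDH5+, GFI1+/-, CD41- and CD45- for AGM of E9.5 and E10.5, and RUNX1+, KIT+, GFI1+/-, CD31+, CD41- and CD45- for YS of E9, E9.5 and E10.5. The HE clusters of the series, 49 AGM cells (HE AGM) and 101 YS cells (HE YS) past the limit, serve below as a second comparison of the same tissues. The study calls c5 intra-aortic hematopoietic clusters, and the labels call it HE-Hb, p1 LMP skewed and p2 EMP skewed.

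Library names gave E10.5 for 15 and E9.5 for 2 of the p1 cells, and E10.5 for 6, E9.5 for 9 and E9 for 5 of the p2 cells; those of c5 give no stage. All 21 c5 cells came from 1 plate of 1 cDNA project and the p1 and p2 cells from 1 other project, so tissue, sort gate and project cannot be told apart in the progenitor values below. Stage could not be matched either, since that of c5 is not given. Of the HE cells, 43 of 49 AGM cells came from the project of c5 and 100 of 101 YS cells from that of p1 and p2. The other 6 and 1 came from 2 further projects, of which 1 holds cells of both tissues, too few for values of their own. The labels tie no cell to an embryo or litter, and each population was therefore taken as 1 sample: no test was made, no p-value or standard error is given, and the 95% intervals (exact Poisson for levels, exact binomial for shares of counts) cover counting error only. The cells were read in 3 nanopore runs, with 7, 7 and 7 cells of c5, 6, 5 and 6 of p1 and 7, 6 and 7 of p2 in runs 1, 2 and 3, each run holding other cells. Totals per cell ran from 47151 to 121985 estimated counts in c5 (median 59726). In p1 they ran from 19398 to 72659 and in p2 from 19575 to 57272, so that c5 was the more deeply read population.

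Blood forms in the embryo when flat endothelial cells of certain vessels, the HE, round up and leave the vessel wall, a process known as the endothelial-to-hematopoietic transition. In the YS this yields erythro-myeloid progenitors (EMPs) and lympho-myeloid progenitors (LMPs), transient cells that supply the embryo with red cells, platelets and macrophages. In the AGM the same process in the wall of the dorsal aorta builds the intra-aortic clusters, from which the first hematopoietic stem cells come. Many genes make more than one RNA, and an isoform is one such RNA with its own start, end and set of exons.

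The labelled populations were checked against marker genes, a check limited by the study's own filters. The study had removed cells with a high hemoglobin share. It had also removed YS outlier cells high in Hbb-y, in Dlk1 and Ptn, or in Pf4 and Gp5, and a cluster expressing Folr1. These genes are among the markers, so low values were in part set by that selection. All 10 markers of early blood progenitors had at least 1 count in a cell of c5, 10 of 10 in p1 and 9 of 10 in p2, and all 10 endothelial markers had counts in each population. No marker of yolk-sac endoderm (0 of 10) had a count in any of the 58 cells. Of 10 macrophage markers 1, 4 and 3 had a count in c5, p1 and p2, and C1qa, C1qb, C1qc, Adgre1 and Cd14 were at 0 in all. Of 10 erythroid markers 4, 4 and 1 had a count, with Alas2 and Slc4a1 at 0 in all, and of 10 mesenchymal markers 2, 3 and 2 had a count, with Col1a1, Col1a2, Col3a1 and Pdgfra at 0 in all. The summed level of the macrophage markers was 3.97 CPM in c5, 16.8 in p1 and 5.46 in p2, where CPM is the summed count of a gene after scaling all counts of the population to a sum of 1000000. That of the endothelial markers was 677, 1360 and 833 CPM, and that of the mesenchymal markers 175, 16.8 and 27.3 CPM, of which Dlk1 made up most in c5.

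Levels of 6189 genes with at least 50 counts over the 58 cells were compared as the log2 ratio of CPM of c5 over YS progenitors, with 0.5 counts added to each sum. Over all of them the median ratio was -0.04. The ratio was over 1, here called higher in c5, for 1450 genes (23.4%) and under -1, here called lower, for 1107 (17.9%). A gene is called higher or lower throughout where it passed this limit in the pool, in each of the 3 runs alone and against p1 and p2 each. This held for 639 genes higher (10.3%) and 462 lower (7.46%) in c5. Processed and unprocessed pseudogenes, copies of genes whose reads are hard to assign, were counted together. They were 38 of the higher (5.95%) and 202 of the lower (43.7%), beside 1055 of all 6189 genes compared. The balance of directions depended on the scaling. With DESeq2 size factors in place of totals the median of all genes moved by 0.31, and 1817 genes were higher and 689 lower. Thus 72.5% of the genes past the limit were higher in c5, against 56.7% as reported. It also differed with the genes that entered. With each cell thinned to 17595 counts 479 genes were higher and 672 lower (41.6% higher). There the minimum of 50 was applied to the thinned counts, so fewer genes entered, and the median of all 6189 genes moved by only 0.02. With at least 200 summed counts 47.8% of the genes past the limit were higher. With YS cells of E10.5 only, and the minimum applied to the cells used, 1492 genes were higher and 951 lower. Ratios of the runs, which share no cell, had a Pearson r of 0.516, 0.582 and 0.584 across genes, which are not independent replicates.

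Gene lists are described by counts and medians of the members compared, with no test. A gene can reach 50 counts through 1 population alone, and one that is near 0 in the other has to differ, so these values are not evidence of a direction by themselves. Each list was therefore also described, by a choice made after seeing the data, over members with at least 50 counts in the HE cells, which the progenitor ratio does not use; over all 9782 such genes 2797 (28.6%) were higher, 1856 lower and the median was 0.09. List medians were also recomputed under 5 alternatives, which are size factors, thinned cells, the ratio less the median of genes of like transcript length, p1 alone and p2 alone.

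Several genes of blood stem cell identity were higher in c5. Of 30 genes listed, 15 had enough counts, and 10 of them were higher and 1 lower, with a median log2 ratio of 2.31, beside 23.4% higher, 17.9% lower and -0.04 over all genes compared. Of the 15, 10 reached 50 counts in c5 but not in the YS progenitors and 0 the reverse. With the minimum set on the HE cells 24 members entered, of which 16 were higher and 1 lower, with a median of 2.20. The summed level of all listed genes was 1700 CPM in c5, 1063 in p1 and 1065 in p2. Hoxa9, Hlf, Cdkn1c, Cd27, Mllt3, Msi2, Angpt1 and Hmga2 were higher throughout (8 genes, beside 10.3% of all genes). Hoxa9, a homeobox factor of stem cell self-renewal, ranged from 0 to 187 CPM over the c5 cells (median 40.5) and was at 0 in every YS progenitor. It had at least 1 count in 15 of the 21 c5 cells and in 0 of 37 YS progenitors. Taking 3 cells as the most that a count of 0 allows, and cells as independent, up to 8.11% of such cells could have had a count. Its pooled level in c5 was 57.6 CPM (46.2 to 71.1), at least 26.7-fold the floor of 3 counts in the YS progenitors. In HE, Hoxa9 was at 77.5 CPM in HE AGM and 44.4 in HE YS, a log2 ratio of 0.80. It was the only gene of the Hox list with enough counts, 1 of 33. Chosen by HE counts, 5 Hox genes entered, of which 3 were higher and 1 lower.

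Hlf, a transcription factor that marks emerging stem cells, ranged from 0 to 164 CPM in c5 (median 42.6). In p1 it was at 0 in all cells but 1, at 51.6 CPM, and in p2 at 0 in all. Counts were found in 12 of 21 c5 cells, and the pooled levels were 46.4 CPM (36.1 to 58.6) and 0.720 CPM (1 count), a ratio of 64.4 with a counting interval of 11.2 to 2580. Mllt3, a chromatin reader that maintains stem cells, ranged from 0 to 338 CPM in c5 (median 20.8), while p1 reached 69.3 and p2 47.7 CPM with medians of 0. It had counts in 15 of 21 c5 cells and in 3 of 37 YS progenitors, so that the ranges overlapped at their low end. Cd27, a receptor of lymphoid progenitors and stem cells, ranged from 0 to 193 CPM in c5 (median 52.4) and had counts in 15 c5 cells, 1 p1 cell and 1 p2 cell. Msi2, an RNA-binding regulator of stem cells, was at 78.2 CPM in c5 and 10.1 in YS progenitors, and Angpt1, a ligand of the TIE2 receptor, at 80.2 and 15.8. Hmga2, a chromatin protein of fetal stem cells, separated the populations less sharply: all 21 c5 cells had counts, from 76.7 to 903 CPM (median 437), against 0 to 379 in p1 (median 57.7) and 0 to 422 in p2 (median 60.2). The log2 ratio was 2.08 for Hmga2 in the pool and 2.60 in HE.

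Not every gene of the list went this way. Esam, an adhesion protein of endothelium and stem cells, ranged from 0 to 140 CPM in c5 (median 62.4), from 0 to 779 in p1 (median 330) and from 0 to 517 in p2 (median 220), and was lower throughout with a log2 ratio of -2.06. Meis1, a Hox cofactor, had a ratio of 0.61 in the progenitors and of 0.46 in HE. The median of the stem cell list was 0.94 in HE, and in the progenitors it lay between 1.36, beside genes of like length, and 2.64 under the 5 alternatives.

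**Figure D1:**
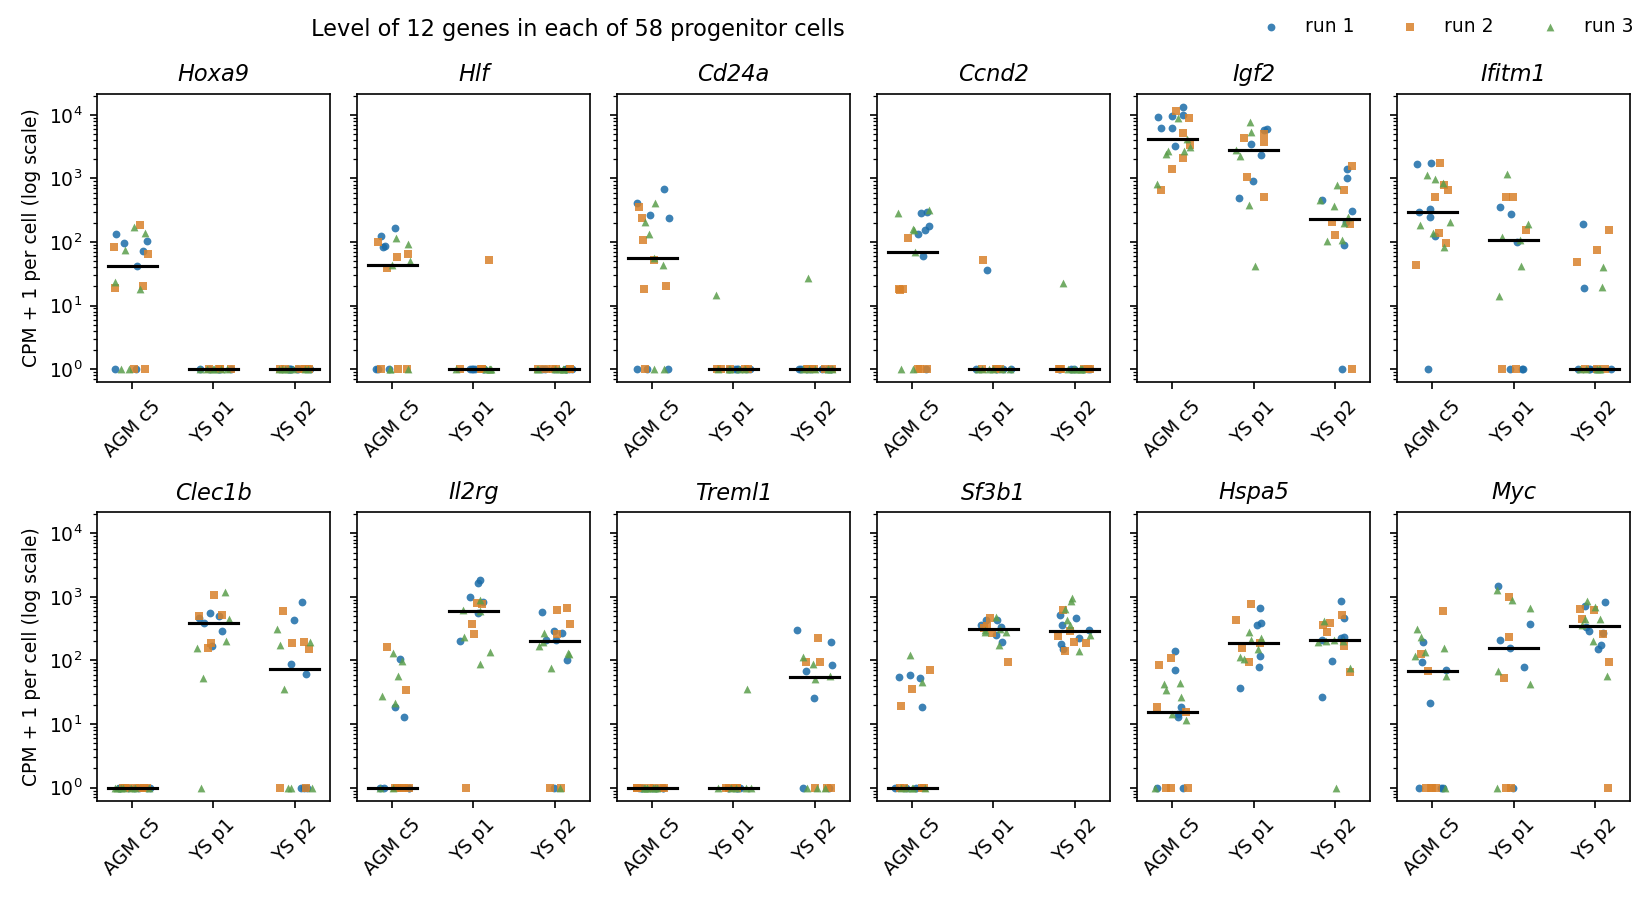
Levels of 12 genes in each of the 58 progenitor cells, as CPM plus 1 of the cell on a log axis, for AGM c5, YS p1 and YS p2; symbols mark the 3 nanopore runs and the black bar is the median of the cells. Hoxa9 lies at 0 in all 37 YS progenitors and holds at least 1 count in 15 of 21 c5 cells, while Clec1b is at 0 in all 21 c5 cells and reaches 1211 CPM in p1.

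Imprinted and fetal growth genes were higher in c5 for 12 of 16 compared, with 2 lower and a median log2 ratio of 1.80. Of the 16, 5 reached 50 counts in c5 but not in the YS progenitors and 0 the reverse. With the minimum set on the HE cells 14 of 20 were higher and 2 lower, with a median of 1.56. Cdkn1c and Hmga2 are also on the stem cell list. The 8 higher throughout were Plagl1, Cdkn1c, Dlk1 (on which the study had filtered cells), H19, Igf2bp2, Hmga2, Gnas and Igf2bp1. Cdkn1c, an imprinted inhibitor of cell division, ranged from 0 to 517 CPM in c5 (median 20.8) and reached 46.2 in p1 and 34.6 in p2, with counts in 13 c5 cells and 3 YS progenitors. H19, an imprinted non-coding RNA, had counts in all 21 c5 cells, from 172 to 3587 CPM (median 895), against 0 to 1271 in p1 (median 375) and 0 to 423 in p2 (median 54.4). Its neighbour Igf2, a fetal growth factor, ranged from 667 to 13484 CPM in c5 (median 4110), from 41.3 to 7621 in p1 (median 2773) and from 0 to 1571 in p2 (median 226). The ranges of c5 and p1 overlapped widely, and the log2 ratio of Igf2 was 0.80 against p1 and 3.76 against p2. Plagl1, an imprinted zinc finger factor, was at 51.0 CPM in c5 and at 0.720 CPM (1 count) in YS progenitors, with counts in 8 and 1 cells, and Gnas, a G protein subunit from an imprinted locus, ranged from 577 to 1676 CPM in c5 (median 1012), with 78.7 to 508 in p1 and 156 to 789 in p2. Every c5 cell lay above every p1 cell for Gnas, while c5 and p2 overlapped.

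In the opposite direction, Hmga1, the relative of Hmga2, was lower throughout. All cells had counts, from 49.2 to 385 CPM in c5 (median 120), from 322 to 1528 in p1 (median 791) and from 325 to 1693 in p2 (median 694), so that the populations overlapped only between 322 and 385 CPM. The log2 ratios of Hmga2 and Hmga1 were 2.08 and -2.15 in the pool, and -1.38 for Hmga1 in HE. The growth list had a median of 1.13 in HE, and of 1.22 to 2.12 in the progenitors under the 5 alternatives.

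Transcription factors of blood formation were higher in c5 for 11 of 22 compared and lower for 1, with a median log2 ratio of 0.98. With the minimum set on the HE cells 12 of 23 were higher and 1 lower, with a median of 1.06. Lmo2, a bridging protein of the SCL complex, had counts in all 21 c5 cells, from 17.5 to 486 CPM (median 153), and a median of 0 in p1 and p2, with highest values of 140 and 221. Myb, needed for definitive blood, ranged from 0 to 433 CPM in c5 (median 167), from 0 to 208 in p1 (median 39.3) and from 0 to 138 in p2 (median 12.6). Tal1, Cbfb and Hhex were also higher throughout, with ratios of 1.96, 1.91 and 1.59. Gata2 was higher in the pool (1.56) but was -0.20 in run 1, and Spi1, the driver of myeloid fate, was 1.06 in the pool and 0.63 against p1. Runx1 and Gfi1b, both tied to the sort or to the transition itself, had ratios of 0.89 and -0.22.

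Myc, a driver of growth and ribosome production, was the exception, lower throughout. It ranged from 0 to 597 CPM in c5 (median 67.0), from 0 to 1507 in p1 (median 157) and from 0 to 864 in p2 (median 349), with counts in 13 of 21 c5 cells, 13 of 17 p1 cells and 19 of 20 p2 cells. The cells overlapped over most of the range, and the pooled log2 ratio of Myc was -1.88, while in HE it was -0.12. Beside genes of like length the median of the list was 0.37, with 7 genes higher and 2 lower, and under the other alternatives 0.86 to 1.25.

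Genes of committed lineages differed in both directions. The lymphoid list had 5 genes compared, of which Cd27 and Ikzf1 were higher and Il2rg and Jak3 lower, with a median of -0.02 that ran from -0.46 against p1 to 0.54 against p2 under the alternatives. Il2rg, the common gamma chain of cytokine receptors, ranged from 0 to 162 CPM in c5 (median 0), from 0 to 1839 in p1 (median 606) and from 0 to 664 in p2 (median 200), and 10 c5 cells against 32 YS progenitors had counts. Its pooled level was 33.8 CPM in c5 and 408 in YS progenitors, 12.1-fold higher there with a counting interval of 9.06 to 16.4, and its log2 ratio was -3.58 beside -0.92 in HE. Jak3, the kinase that pairs with this chain, was at 11.3 and 50.4 CPM, a ratio of -2.13 beside -0.09 in HE.

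Myeloid genes were higher for 2 and lower for 5 of 10 compared, with a median of -0.69, which was -0.80 to -0.38 under the alternatives. With the minimum set on the HE cells 4 of 12 were higher and 6 lower, with a median of -0.30. Fcgr3 and Fcer1g, parts of Fc receptors, were lower throughout. Fcer1g ranged from 0 to 817 CPM in c5 (median 95.9), from 46.2 to 1392 in p1 (median 447) and from 53.8 to 988 in p2 (median 461), with wide overlap. Against this direction, Cebpb, a factor of emergency myelopoiesis, ranged from 0 to 356 CPM in c5 (median 113) with counts in 17 of 21 cells, and had counts in only 1 p1 cell and 1 p2 cell. Its log2 ratio was 4.70, and 3.94 in HE. Mpo, a granule enzyme, was within the limit at 0.47.

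Of 16 erythroid and megakaryocytic genes 5 were higher and 2 lower, with a median of 0.04. Against p1 alone 7 were higher and 2 lower (median 0.72), beside genes of like length 5 and 4 (median 0.45), and against p2 alone 5 and 4 (median -0.02). Vwf, carried by endothelium and by megakaryocyte-primed cells, had counts in 7 c5 cells (0 to 352 CPM, median 0) and in 1 p2 cell, and Itgb3, an integrin of platelets, in 13 c5 cells, no p1 cell and 4 p2 cells. Treml1, a protein of platelet granules, was at 0 in all 21 c5 cells, had counts in 1 p1 cell, and in p2 ranged from 0 to 302 CPM (median 53.6), so that c5 was at least 19.9-fold lower than the pooled YS progenitors. Car2, a carbonic anhydrase of red cells, ranged from 0 to 536 CPM in c5 (median 28.5), from 0 to 1110 in p1 (median 436) and from 0 to 1465 in p2 (median 283). Hbb-bt, an adult globin gene, was higher only through 1 c5 cell at 783 CPM. The summed level of the erythroid markers was 50.3 CPM in c5, 45.7 in p1 and 4.10 in p2. That of the megakaryocyte markers, of which Gp5 and Gp6 were at 0 in all cells, was 70.9, 30.5 and 139 CPM, with a highest cell of 441 in c5 and 471 in the YS progenitors, and their part in these results was not tested.

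Among surface genes of blood cells 5 of 19 were higher and 4 lower, with a median of 0.39 that was 0.04 against p1, 0.73 against p2 and 0.10 beside genes of like length (2 higher, 3 lower). Cd24a, a small glycoprotein anchored in the membrane, had the highest ratio of the genes named by the size of their ratio. It ranged from 0 to 673 CPM in c5 (median 54.1), was at 0 in all p1 cells but 1 (13.8 CPM) and in all p2 cells but 1 (26.6 CPM), and had counts in 15 of 21 c5 cells. The pooled levels were 156 CPM (137 to 178) and 1.44 CPM (2 counts), a ratio of 109 with a counting interval of 29.7 to 902. In HE the levels of Cd24a were 210 CPM in HE AGM and 32.1 in HE YS, a log2 ratio of 2.70 beside 6.44 in the progenitors. Itga4, an integrin, had a log2 ratio of 2.28, and Vav1, a signalling protein of blood cells, was lower throughout at 11.3 and 43.9 CPM. Kit, which the HE gates select in the opposite sense for AGM and YS, was at 191 and 73.4 CPM, a log2 ratio of 1.38. The labels give no gate of its own for c5.

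Clec1b, a C-type lectin receptor of platelets, had the lowest ratio of the genes named by the size of their ratio. It was at 0 in all 21 c5 cells, which by the same rule of 3 cells allows up to 14.3% of cells with a count, and ranged from 0 to 1211 CPM in p1 (median 389) and from 0 to 834 in p2 (median 73.8). Counts were found in 16 of 17 p1 cells and 12 of 20 p2 cells, and the pooled level of 269 CPM (242 to 297) was at least 135-fold the floor of 3 counts in c5. In HE, Clec1b was at 9.01 CPM in HE AGM and 261 in HE YS.

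Endothelial genes were spread around the median of all genes, with 4 of 19 higher, 6 lower and a median of -0.15. It was above 0 with size factors (0.27), with thinned cells (0.18) and against p2 alone (0.11), and was lowest, at -0.54, against p1. Lmo2, Cdh5 and Tal1 were higher throughout and Ets2 in the pool. Esam was lower throughout, and Cldn5, Ramp2, Plvap, Sox18 and Emcn were lower in the pool. Cdh5, the junction protein used in the gate of AGM HE, ranged from 0 to 427 CPM in c5 (median 54.1) and had counts in 15 c5 cells and 5 YS progenitors. It was the 1 endothelial marker of 9 compared that was higher in c5, while 4 were lower (median -0.78). None of the arterial genes had enough counts to be compared, and their summed level was 65.2 CPM in c5, 24.6 in p1 and 21.8 in p2. In the list of Notch genes 3 of 6 were higher and 1 lower, with a median of 1.12. Dlk1, on which the study had filtered cells, and Mib1 were higher throughout. Beside genes of like length 2 were higher and 0 lower (median 0.44). Of members chosen by HE counts 7 of 16 were higher and 2 lower (median 0.68). In that of venous and YS endothelial genes 2 of 3 were lower, Tcn2 and Npl, with a median of -2.01. By HE counts 10 of 22 were lower and 3 higher (median -0.78).

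Of the lists that the study used, the EMP and LMP lists had been published before. Its EMP fate, LMP fate and shared HE lists were chosen in part on cDNA of these cells and are not independent of them. Of the EMP genes 23 of 56 compared were higher and 9 lower (median 0.58). Beside genes of like length 14 were higher and 11 lower (median 0.26), and the median was 1.10 against p1 and 0.31 against p2. Of the LMP genes 7 of 14 were higher and 3 lower (median 0.98, but 2.19 against p2), and of the genes shared by HE populations 1 of 5 and 0 (median 0.54, with -0.22 to 0.90 under the alternatives). Of the EMP fate genes 1 of 6 was higher and 0 lower (median -0.16, with -0.58 to 0.67 under the alternatives), and of the LMP fate genes 3 of 10 were higher and 4 lower (median -0.27, with -0.67 to 0.61 under the alternatives). The medians of these 5 lists over members chosen by HE counts, in the order given, were 0.55, 0.59, 0.29, -0.14 and 0.01.

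**Figure D2:**
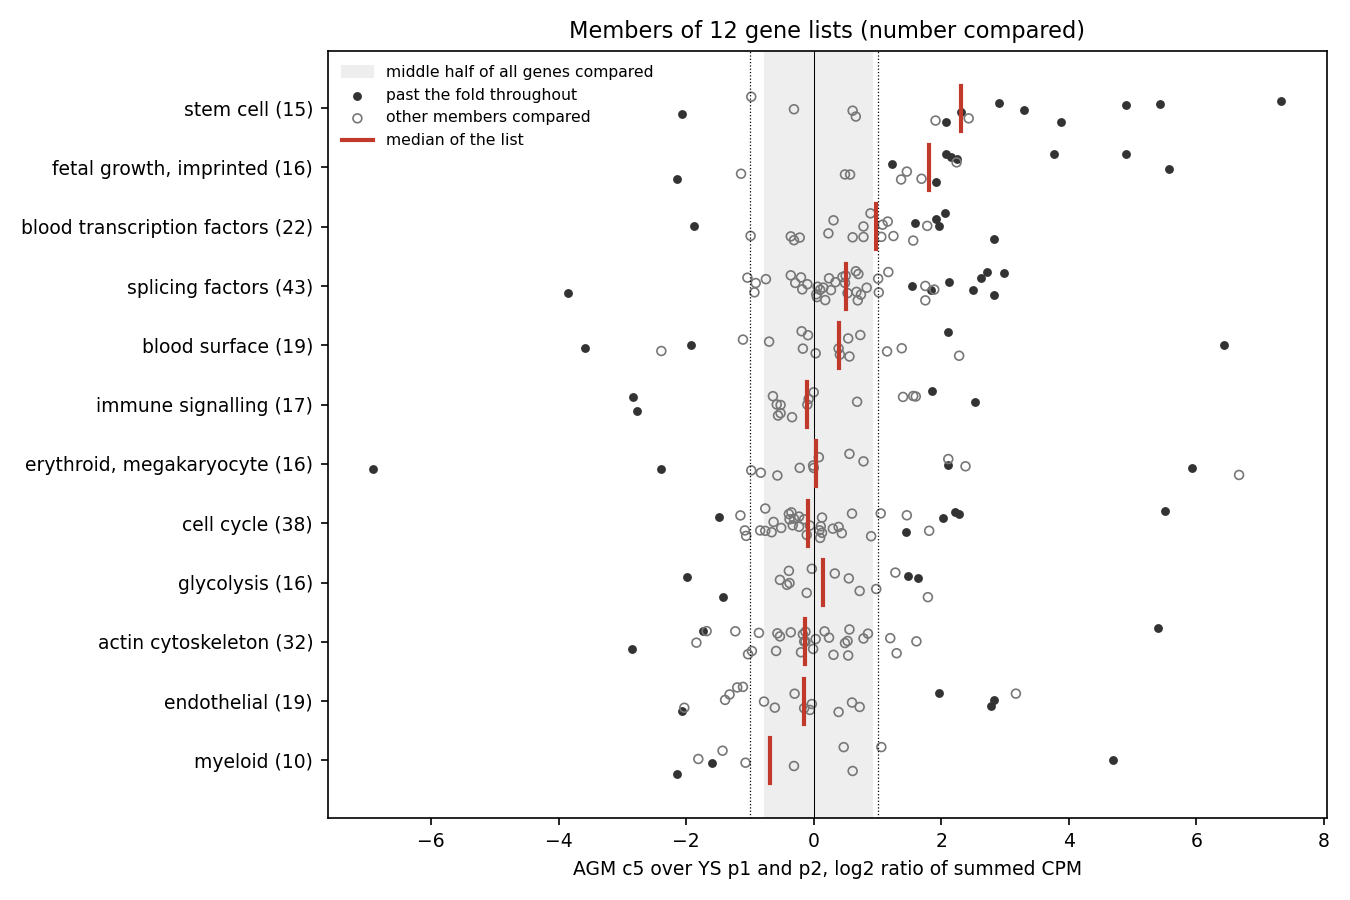
Log2 ratio of summed CPM, AGM c5 over YS p1 and p2, for the compared members of 12 gene lists; filled points passed the limit of 1 (dotted lines) in the pool, each run and against p1 and p2, red bars are list medians and the grey band is the middle 50% of all genes compared. The medians of the stem cell (2.31), fetal growth (1.80) and blood transcription factor (0.98) lists lie right of the band, and those of the other lists inside it.

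Immune signalling genes also differed in both directions. Of 17 compared 5 were higher and 2 lower, with a median of -0.10, which was -0.34 against p1 and 0.08 against p2. Ifitm1 and Ifitm3, interferon-induced membrane proteins that stem cells also carry, were higher throughout. Ifitm1 ranged from 0 to 1770 CPM in c5 (median 293), with highest cells of 1155 in p1 and 188 in p2 (median 0), so that all 3 populations overlapped at the low end and no p2 cell reached the median of c5. Its log2 ratio was 2.53, while in HE the levels of 165 and 164 CPM gave 0.01. Bst2, another interferon-induced membrane protein, went the other way, with a log2 ratio of -2.84 and counts in 9 c5 cells and 22 YS progenitors, and so did Myd88, the adaptor of Toll-like receptors, at -2.77.

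Cell cycle genes were near the median of all genes. Of 38 compared 8 were higher and 4 lower, with a median of -0.08, which was -0.16 to 0.31 under the alternatives. Ccnd2, a cyclin of the start of the cycle, ranged from 0 to 317 CPM in c5 (median 67.7) and had counts in 15 c5 cells, 2 p1 cells and 1 p2 cell, with pooled levels of 115 and 2.16 CPM (3 counts), a ratio of 53.1 and a counting interval of 17.9 to 260. Top2a and Bub1, of the later cycle, were higher throughout with log2 ratios of 2.21 and 2.28, and Hmgb2, a chromatin protein of dividing cells, was lower throughout at -1.48.

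Glycolysis genes were higher for 4 and lower for 2 of 16, with a median of 0.15, which was -0.15 with thinned cells, -0.07 beside genes of like length and 0.45 with size factors. Pgk1 and Pgam1 were higher throughout, Pgam1 at 1.63, which was 0.58 when reads of its named pseudogenes were added, and Tpi1 and Eno1 were lower throughout (-1.99 and -1.42). Tpi1 ranged from 0 to 154 CPM in c5 (median 48.1), and its lowest values in p1 and p2, 94.8 and 98.2 CPM, lay above the median of c5. Genes of the actin cytoskeleton were higher for 4 and lower for 6 of 32, with a median of -0.13 that was 0.12 with size factors. Myh9, the heavy chain of non-muscle myosin, had counts in 20 of 21 c5 cells, from 0 to 298 CPM (median 175), and in 1 p1 cell and 1 p2 cell, a log2 ratio of 5.40 beside 3.28 in HE. Actg1, cytoplasmic gamma actin, had counts in every cell, from 11.7 to 339 CPM in c5 (median 79.6), from 37.1 to 1184 in p1 (median 660) and from 179 to 1438 in p2 (median 867), a ratio of -2.85. Actb, its beta counterpart, had a ratio of -0.13.

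Splicing factors of the SR and hnRNP families and their partners were higher for 14 and lower for 2 of 43 compared, with a median of 0.50, which was 0.44 to 0.71 under the alternatives and 0.61 in HE. Hnrnpul1, U2af2, Hnrnpl, Hnrnpa0, Casc3, Hnrnpa1, Srsf3 and Hnrnpd were higher throughout. Hnrnpl, which binds CA-rich RNA, had counts in all c5 cells, from 230 to 846 CPM (median 394), against 0 to 432 in p1 (median 52.6) and 0 to 157 in p2 (median 53.1), so that c5 and p2 did not overlap. The log2 ratio was 2.72 for Hnrnpl, 2.83 for U2af2, which reads the polypyrimidine tract, and 2.12 for Hnrnpa1. Sf3b1, which holds the branch point of the intron, ran counter to them. It ranged from 0 to 120 CPM in c5 (median 0), from 94.2 to 474 in p1 (median 316) and from 138 to 960 in p2 (median 294), with counts in 9 of 21 c5 cells and in every YS progenitor. The pooled levels of Sf3b1 were 23.8 and 351 CPM, 14.7-fold higher in YS progenitors, and in HE 34.2 and 376 CPM. For lists not yet given so, the medians over members chosen by HE counts were 0.49 for splicing factors, 0.40 for surface genes, 0.33 for arterial, 0.17 for lymphoid, 0.04 for erythroid and megakaryocytic, 0.02 for cell cycle, 0.01 for glycolysis, -0.04 for endothelial, -0.07 for actin and -0.34 for immune signalling genes.

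The other genes that the naming rule gave as higher in c5 were Aldh1a3, which makes retinoic acid (log2 ratio 5.29), Garnl3 (5.22), S100a11, a calcium-binding protein (4.85), Iho1, a protein of meiotic chromosomes (4.69), Syk, a kinase of immune receptors (4.66), Luc7l2, a splicing factor of the U1 particle (4.65), Sfrp2, a secreted antagonist of Wnt (4.47), and the ribosomal protein genes Rps20 (4.97), Rpl39 (4.37) and Rps4x (4.34). Aldh1a3 reached 3516 CPM in 1 c5 cell with a median of 33.5 over the c5 cells, while Syk was more even, from 0 to 234 CPM (median 61.6) with counts in 16 of 21 c5 cells and 3 YS progenitors. Rps4x ranged from 590 to 1889 CPM in c5 and reached only 245 in p1 and 289 in p2, without overlap. The ribosomal genes have many near-identical pseudogenes, so their ratios are uncertain, and adding the reads of the pseudogenes named after them gave 3.82 for Rps4x and 3.95 for Rpl39.

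Among the genes that the rule gave as lower in c5 were several that work in the endoplasmic reticulum. Hspa5, its main chaperone, ranged from 0 to 140 CPM in c5 (median 14.2), from 35.4 to 779 in p1 (median 188) and from 0 to 875 in p2 (median 208), 8.07-fold higher in YS progenitors in the pool, with a log2 ratio of -2.11 in HE. Pdia3, which forms disulphide bonds, Sdf2l1, a cochaperone, and Jagn1, a membrane protein of this compartment, had ratios of -3.15, -3.28 and -2.98. These genes were taken by the size of their ratios and not as a list, so nothing is said here of the compartment as a whole. The rest were Gnb4, a G protein subunit (-3.92), Gpx3, a secreted peroxidase (-3.85), Tcn2, the carrier of vitamin B12 (-3.62), Bin2 and Bin1, which bend membranes (-3.50 and -3.40), Wdr77, a partner of the arginine methylase PRMT5 (-3.49), Tubb3, a beta tubulin (-3.26), and Zfr, a zinc finger RNA-binding protein (-3.23). Bin2 ranged from 0 to 198 CPM in c5 (median 0), from 0 to 832 in p1 (median 315) and from 0 to 765 in p2 (median 305), with counts in 7 c5 cells and 34 YS progenitors.

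The ratio between the tissues in progenitors resembled that in HE, a comparison that shares no cell with it but mostly comes from the same cDNA projects. Across the 6189 genes the Pearson r of both ratios was 0.785, given as a description. Of the 639 genes higher throughout in c5, 538 (84.2%) also had a log2 ratio over 1 of HE AGM over HE YS, beside 23.1% of all genes, and of the 462 lower throughout 343 (74.2%) were under -1 there, beside 14.4%. In HE the ratio had the other sign for 18 and 13 of them. The progenitor ratio exceeded the HE ratio by more than 1 for 583 genes (9.42%) and fell short of it by more than 1 for 624 (10.1%), with a median difference of -0.03.

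By the same naming rule, the genes whose ratio was higher in progenitors than in HE were led by Spint2, an inhibitor of serine proteases on the cell surface. It ranged from 0 to 287 CPM in c5 (median 102) with counts in 19 of 21 cells and had counts in 7 YS progenitors, a log2 ratio of 3.06, while in HE the ratio was -0.98. Next to Cd24a, S100a11, Sfrp2, Luc7l2, Ifitm1 and Ccnd2, already described, these genes were Serpinf1, a secreted serpin (3.98 beside 0.57 in HE), Pnrc1, a nuclear receptor coregulator (3.71 beside 0.87), and Dhx8, a helicase that releases spliced RNA (3.26 beside 0.78). In the other direction, next to Clec1b, Wdr77, Il2rg, Gpx3 and Jagn1, they were Pcyox1l (-2.07 beside 0.39), Sh3bp1, a regulator of small GTPases (-2.37 beside -0.01), Pes1, which processes ribosomal RNA (-2.49 beside -0.29), Sdha, a subunit of succinate dehydrogenase (-1.71 beside 0.39), and P2rx1, an ATP-gated channel of platelets (-2.44 beside -0.41). Ratios of HE and of progenitors had the opposite sign for Spint2, Pcyox1l and Sdha. By run, the progenitor ratio less the HE ratio turned sign for P2rx1, at 1.02 in run 2, and for Luc7l2, at -0.66 in run 1. For the other genes of this paragraph it kept its sign in each run.

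**Figure D3:**
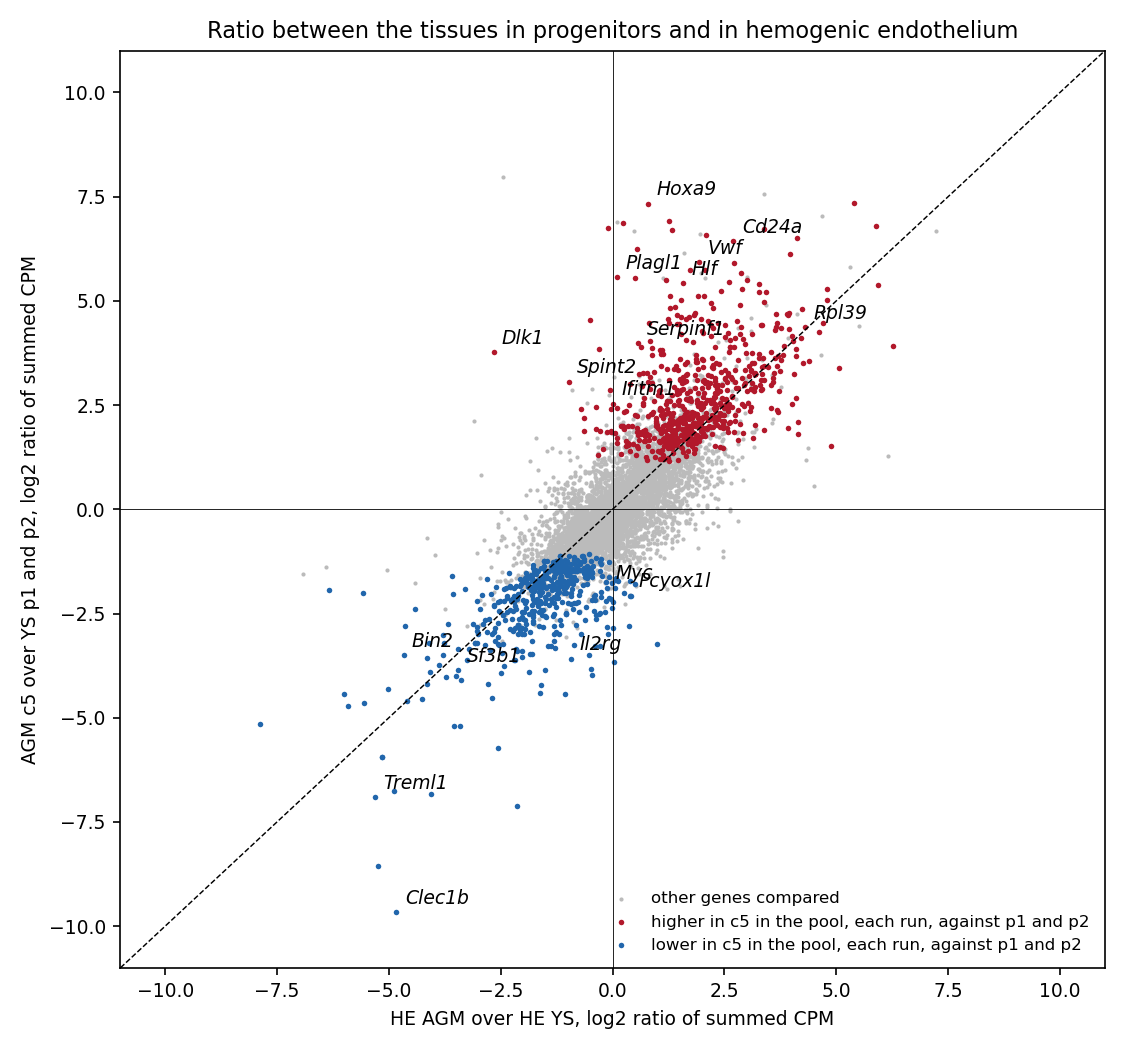
Log2 ratio of summed CPM between the tissues for 6189 genes, HE AGM over HE YS on the horizontal axis and AGM c5 over YS p1 and p2 on the vertical one; red and blue points passed the limit of 1 throughout, and the dashed line marks equal ratios. Most coloured points lie on the same side of 0 on both axes, with Dlk1 and Spint2 above 0 in progenitors and below it in HE.

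Library composition moved with the tissue. The mean annotated length of the transcripts, weighted by counts, had a median of 1303 bases per cell in c5 (1105 to 1653), 1063 in p1 (969 to 1315) and 1139 in p2 (971 to 1341), and of 1477 in HE AGM and 1158 in HE YS. The ratio between the populations differed with the length of the gene's transcripts, though not in 1 direction. Its median was -0.08 for 723 genes under 500 bases and -0.31 for 1401 genes of 500 to 1000, lowest at -0.52 for 1205 genes of 1000 to 1500, and from there higher with each range, to 1.11 for 353 genes of 4000 to 6000 and 1.16 for 120 longer ones. The HE ratio had the same shape, with -0.22 for the shortest, -0.41 at its lowest and 1.29 for the longest. The difference of the ratios of progenitors and HE stayed between -0.19 and 0.20 in all 8 ranges of length. Less the median of their range, 1312 genes were higher and 896 lower. The part of transcript length, or of cDNA size, in the gene ratios was not tested.

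**Figure D4:**
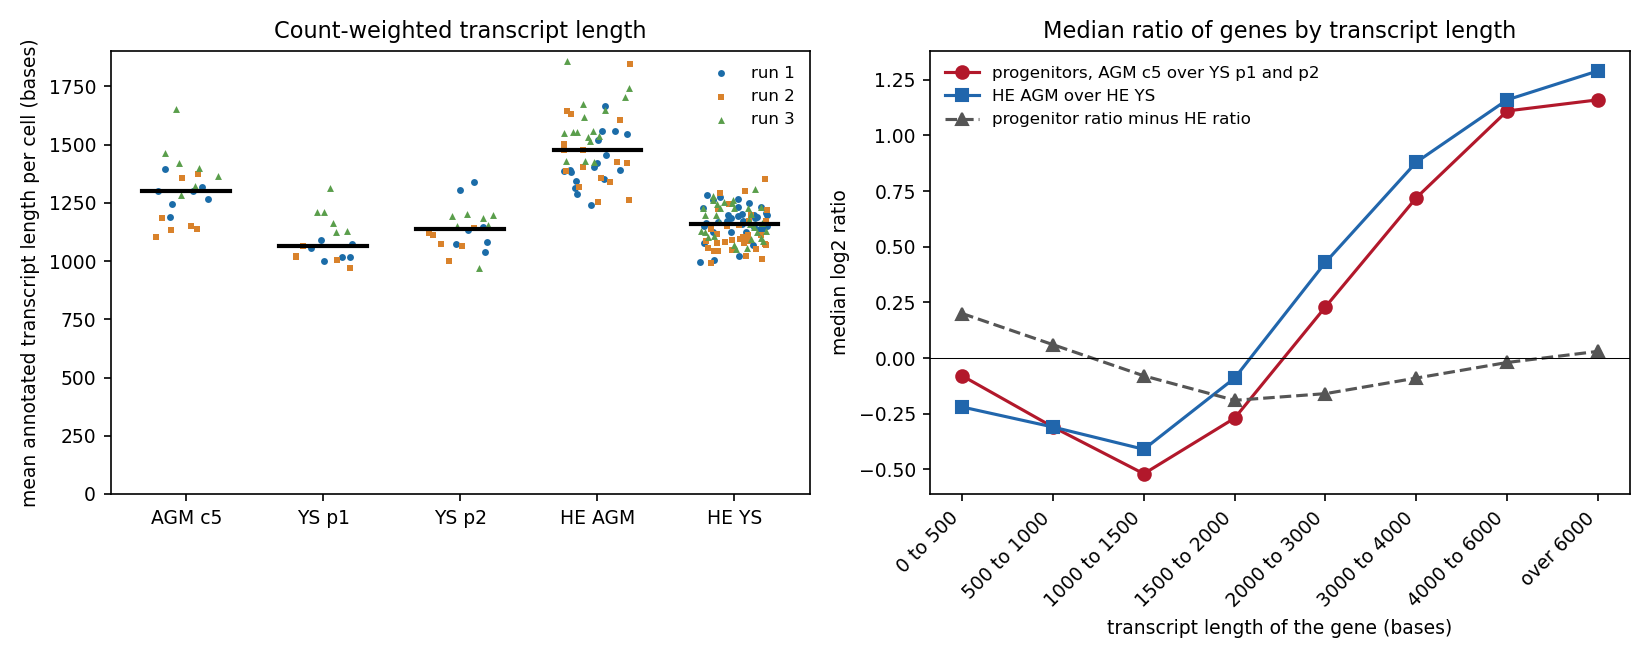
Left, mean annotated transcript length per cell in bases, weighted by counts, for 5 populations, with symbols for the 3 runs and a bar at the median of the cells. Right, median log2 ratio of genes in 8 ranges of transcript length for progenitors, HE and the difference; both ratios are lowest at 1000 to 1500 bases and highest above 6000 (1.16 and 1.29).

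Processed and unprocessed pseudogenes together took 21.2% of the counts of c5 (14.9% to 26.2% per cell) and 27.8% of those of YS progenitors (24.7% to 31.2%). Ribosomal protein genes took 9.11% (7.24% to 10.6%) and 6.73% (5.79% to 8.28%). Mitochondrial genes took 3.56% (2.83% to 4.07%) and 2.33% (1.71% to 4.59%). Transcripts annotated as targets of nonsense-mediated decay took 3.30% (2.76% to 3.78%) in c5 and 4.04% (3.33% to 4.64%) in YS progenitors, and retained-intron transcripts 5.78% and 5.26%. The differences had the same direction in HE, where pseudogenes took 18.2% and 26.1% and ribosomal protein genes 7.60% and 6.77%. A median of 5374 genes had at least 1 count in a c5 cell and of 4176 in a YS progenitor, and with each cell thinned to 17595 counts 3962 and 3492.

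Isoform fractions, the share of a gene's summed counts that goes to 1 transcript, were compared for 1212 genes with at least 20 counts in each population in each run. A difference of over 0.1 in at least 1 isoform was found for 571 of them (47.1%), and it was over 0.1 in the pool, each run and against p1 and p2 each for 326 (26.9%). Runs of the same population also differed. With 581 genes thinned to 50 counts per side, 53.4%, 49.2% and 56.1% passed 0.1 between c5 and YS progenitors in runs 1, 2 and 3, beside 40.4% to 41.8% between runs of c5. Between runs of YS progenitors 190, 212 and 221 of the 581 genes did, at least 32.7%. Of isoforms past the limit throughout 262 were higher and 285 lower in c5. Transcripts annotated for nonsense-mediated decay made up 16 of the higher (6.11%) and 36 of the lower (12.6%), beside 7.61% of the 3063 isoforms that held over 0.1 in either population and so could have passed. Those of coding genes without a defined coding sequence were 12 (4.58%) and 32 (11.2%), beside 7.64%. Retained introns were 25 (9.54%) and 34 (11.9%), close to their share of 10.3%.

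For each of the 326 genes the isoform with the largest gain in c5 was set beside that with the largest loss. The isoform gained in c5 was the longer for 253 genes (77.6%), beside 65.3% of all 1212 genes, and the median lengths were 1560 and 831 bases. For 317 pairs both isoforms were found, by identifier and length, in GENCODE M21, and there the isoform gained in YS progenitors ended more than 100 bases upstream of the other for 251 (79.2%) and downstream for 25 (7.89%), beside 58.3% and 13.3% of the 1133 such pairs over all genes compared. Their starts showed no such side, 99 upstream, 110 downstream and 108 within 100 bases. In HE both isoforms differed by over 0.1 in the same directions for 211 of the 326 genes (64.7%), beside 27.5% of all 1212, and had the other sign for 2. The length of the transcripts moved with these differences as with gene levels, and its part was not tested.

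The gene with the largest shift of an isoform was Ywhab, which encodes a 14-3-3 protein, which binds phosphorylated partners. Its isoform Ywhab-201 (3013 bases) held 0.893 of the counts in c5 (0.851 to 0.927) and 0.180 in YS progenitors (0.124 to 0.248), and Ywhab-202 (849 bases) the reverse, 0.107 and 0.820. By run Ywhab-201 was at 0.829, 0.774 and 0.972 in c5 and at 0.107, 0.214 and 0.259 in YS progenitors, so that the runs of the populations did not overlap. Per cell, over cells with at least 5 counts of the gene, it ranged from 0.250 to 1.00 in c5 (median 0.857, 19 cells), from 0 to 0.571 in p1 (median 0.125, 7 cells) and from 0 to 0.833 in p2 (9 cells), so that single cells overlapped.

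Hspd1-201 and Hsp90ab1-201, full-length transcripts of chaperones, showed the same with more counts. Hspd1-201 held 0.934 in c5 and 0.319 in YS progenitors, and Hsp90ab1-201, from over 4000 counts of the gene in each population, 0.767 (0.754 to 0.780) and 0.169 (0.159 to 0.180). Per cell Hsp90ab1-201 ranged from 0.619 to 0.843 over all 21 c5 cells and reached 0.415 in p1 and 0.273 in p2, without overlap. In HE it was at 0.713 and 0.167. Actb-201, the 1920-base form of beta actin, ranged from 0.817 to 0.956 per c5 cell, with 0.143 to 0.652 in p1 and 0.0907 to 0.636 in p2, again without overlap, while Actb-208 (930 bases) held 0.0121 of the counts in c5 and 0.381 in YS progenitors. The level of Actb was 8206 and 8952 CPM, so the isoforms differed while the gene level did not pass the limit.

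The others of the 10 isoforms with the largest gain were Eprs1-201 and Eif3e-201, of a tRNA synthetase and an initiation factor (0.627 and 0.545 higher), Rps15a-201 (0.626), Eif4e2-204, of a cap-binding protein (0.616), Bub3-203, of the spindle checkpoint (0.607), Cct2-201, of the TRiC chaperonin (0.579), and Psmc1-201, of the proteasome (0.566). Those with the largest loss in c5, after Ywhab-202, were Srpk1-206, a retained-intron transcript of an SR protein kinase (0.0353 in c5 and 0.743 in YS progenitors), Lims1-201, of an adhesion adaptor (0.179 and 0.867), Eif4e2-208, Dnttip2-203, Rps15a-202, Snrnp70-204, a decay-prone transcript of a U1 particle protein (0.0149 and 0.606), Rpl18-211, Eef1b2-206 and Calm3-204. Lims1-201 was at 0, 0.479 and 0.0506 in runs 1, 2 and 3 of c5, the widest spread between runs of c5 among the 20 isoforms named by their size of difference. Each of the 20 differed in the same direction in HE.

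**Figure D5:**
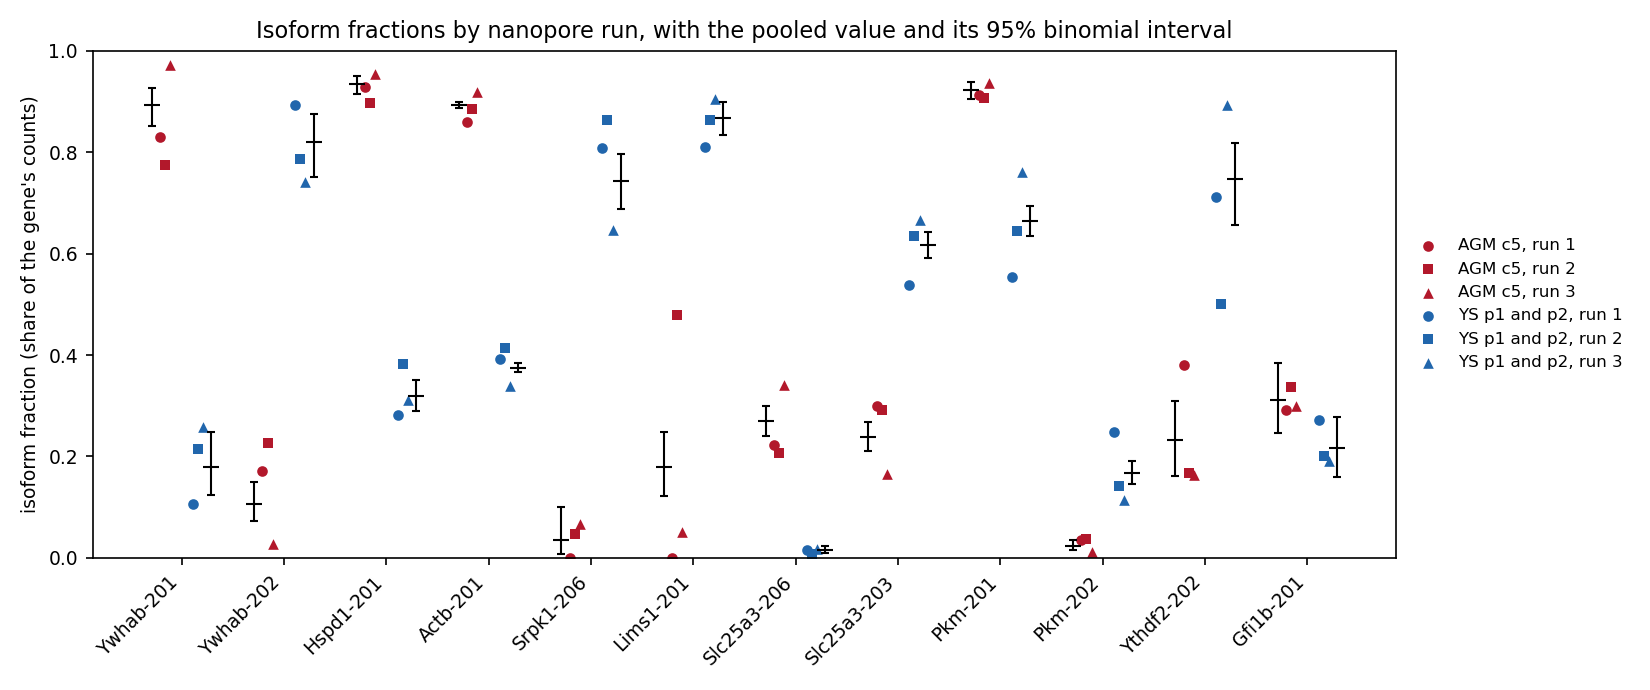
Isoform fraction of 12 transcripts, the share of the gene's summed counts, in AGM c5 (red) and YS p1 and p2 (blue), with 1 symbol per nanopore run and black marks for the pooled value and its 95% binomial interval. The runs of c5 and of YS progenitors do not overlap for any of the 12 transcripts, and Gfi1b-201 lies closest together, at 0.312 and 0.217.

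For a pair of genes the isoforms that differed hold alternative internal exons, and the sequences of these are shown because they are what the reads must tell apart. Pkm encodes pyruvate kinase, the last enzyme of glycolysis, with a pair of mutually exclusive exons of 167 bases each. The downstream one gives the M2 form of growing cells and is in Pkm-201 (chr9:59675568-59675734, plus strand, GRCm38, GENCODE M21). The upstream one gives the M1 form of muscle and brain and is in Pkm-202 (chr9:59675029-59675195). The transcripts of Pkm also differ in both ends, by 205 bases at the start and 186 at the end, so the exon alone was not measured. Capitals mark the 64 of 167 bases at which the exons differ (61.7% identical).
Pkm-201 exon: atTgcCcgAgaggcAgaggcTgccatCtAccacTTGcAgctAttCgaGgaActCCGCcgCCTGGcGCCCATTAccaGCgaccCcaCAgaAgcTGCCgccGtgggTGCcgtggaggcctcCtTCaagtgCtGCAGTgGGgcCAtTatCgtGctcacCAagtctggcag
Pkm-202 exon: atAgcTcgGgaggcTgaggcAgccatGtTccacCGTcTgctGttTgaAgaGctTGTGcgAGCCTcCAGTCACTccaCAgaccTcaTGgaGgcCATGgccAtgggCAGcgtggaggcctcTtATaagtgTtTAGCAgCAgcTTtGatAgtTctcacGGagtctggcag

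Pkm-201, with its exon, held 97.5% of the counts of these 2 transcripts in c5 (96.2% to 98.3%), 74.7% in p1 and 83.8% in p2, and 79.9% (77.1% to 82.6%) in YS progenitors together. In runs 1, 2 and 3 it was at 96.3%, 96.1% and 98.7% in c5 and at 69.1%, 82.0% and 87.0% in YS progenitors. Over cells with at least 5 counts the lowest value was 54.5% in c5 (median 98.7%), 7.69% in p1 (median 89.4%) and 7.52% in p2 (median 97.5%), so that most cells of each population carried mainly this exon and the lower pooled value of YS progenitors came with a minority of cells. In HE it was at 95.4% and 84.5%, and the level of Pkm was 697 and 752 CPM in the progenitors.

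Slc25a3 encodes the phosphate carrier of the inner mitochondrial membrane and also has a pair of alternative exons. The exon of Slc25a3-206 lies at chr10:91122207-91122331 and that of Slc25a3-203 at chr10:91121922-91122043 (minus strand, same build and annotation). Both are printed whole, with no letters marked because their lengths, 125 and 122 bases, differ.
Slc25a3-206 exon: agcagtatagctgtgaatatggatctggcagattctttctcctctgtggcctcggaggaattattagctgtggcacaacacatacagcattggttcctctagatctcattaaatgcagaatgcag
Slc25a3-203 exon: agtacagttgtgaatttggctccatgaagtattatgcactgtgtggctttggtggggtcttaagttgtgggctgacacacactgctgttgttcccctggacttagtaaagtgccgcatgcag

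Of the counts of transcripts with 1 of these exons, the Slc25a3-206 exon held 51.9% in c5 (47.2% to 56.5%) and 2.37% in YS progenitors (1.52% to 3.65%). It was at 42.2%, 40.8% and 65.0% in the runs of c5 and at 2.86%, 1.13% and 2.62% in those of YS progenitors, and at 54.5% and 4.10% in HE. Per cell it ranged from 3.47% to 86.5% in c5 (median 49.8%, 20 cells), and reached 5.26% in p1 and 26.8% in p2, so that the ranges of c5 and of the YS progenitors overlapped at the low end of c5. Slc25a3-202, a decay-annotated transcript with a longer version of the same exon that was not counted here, held 0.286 of all Slc25a3 counts in c5 and 0.0143 in YS progenitors. The transcripts also differ in the intron between their first exons and reads were assigned to whole transcripts by the authors, so the exon alone was not measured. The level of Slc25a3 was 592 and 1011 CPM.

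For 8 genes that the study discusses at the isoform level or that govern splicing or the transition, the counts allowed a comparison, Pkm among them. Ythdf2, a reader of m6A marks that leads RNA to decay, differed most. Its retained-intron transcript Ythdf2-202 held 0.232 of the counts in c5 (0.162 to 0.310) and 0.748 in YS progenitors (0.656 to 0.819), and Ythdf2-201 held 0.607 and 0.248, the latter by a difference of only 0.042 in run 2. Pfn1-201 of profilin was at 0.988 and 0.984, Srsf1-201 at 0.882 and 0.892, Srsf2-201 at 0.924 and 0.908, and Srsf9-201 at 0.711 and 0.721. Rpl34-201 was at 0.620 and 0.638. Gfi1b-201 was at 0.312 and 0.217, and its median over 14 c5 cells was the value that an equal division of reads fitting 2 transcripts gives. Arglu1, Casc3, Cd44, Gata2, Hnrnpl, Ikzf1, Myb, Psip1, Ptprc and Runx1 had too few counts per run.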

How the data were processed

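Single-cell Smart-seq2 cDNA was sequenced on a PromethION P2 Solo. Per the methods of the study, reads were basecalled with Dorado, trimmed, aligned with Minimap2 to GENCODE transcripts and quantified with NanoCount; the submitters' processing notes give minimap2 2.26, R 4.3.0 and DESeq2 1.40.2. The deposited table holds 1 estimated count per transcript and cell, made by the authors without scaling, with reads that fit several transcripts divided among them. These values need not be whole and were summed without rounding; whole-number rounding was applied for the intervals of isoform fractions, for thinning and for size factors, while intervals of levels and ratios used the unrounded sums.

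Here cells with a total of at least 17595 (median minus 1 scaled median absolute deviation) were kept, transcript counts were added by gene and cell population, and ratios and isoform fractions were computed with pandas 2.3.3, numpy 2.4.6 and scipy 1.17.1 under Python 3.11.15. DESeq2 1.42.0 in R 4.3.3 gave size factors only, for an alternative. Cells were grouped by the cluster in their labels, with p1 and p2 pooled. No cDNA well occurs in more than 1 library (0 of 221). A cell was said to have a count from 1 count upward.

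The members and gene lists were chosen with earlier results of these data known. Named genes were members of the lists, the 15 with the highest and the 15 with the lowest ratio among coding genes and lncRNAs past the limit throughout with at least 100 counts and a count in at least 50% of the cells of the higher population, and 10 each way by the difference from the HE ratio; 105 genes with predicted names or none were passed over. Isoforms were the 10 largest differences each way, with those of genes of splicing and the transition. Those of Actb and Slc25a3 and the exon pairs were picked after their values were seen. Exon sequences and coordinates are those of GRCm38, GENCODE M21, while the table uses a later GENCODE release on another build, so transcripts were matched by identifier and length. The computation was tested on simulated counts. Alternatives were other scalings, depths, filters, runs, YS clusters and stages. Values of a few genes of the lists are not reported here.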

Additional observations from a re-analysis of the deposited data

Results flagged for a closer look

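Among 3016 coding genes and lncRNAs with a symbol, at least 100 counts in the progenitors and at least 20 in HE, the AGM over YS ratio had opposite signs in progenitors and in HE in every one of the 3 nanopore runs for 47, of which 2 also had both pooled log2 ratios past 1. Dlk1, an imprinted membrane protein and ligand of the Notch family, had a log2 ratio of 3.77 in progenitors (3.53, 3.22 and 3.97 in runs 1, 2 and 3) and of -2.66 in HE (-2.03 and -5.10 in runs 2 and 3, and also below 0 in run 1). Its levels were 172 CPM in c5, 12.2 in YS progenitors, 1.20 in HE AGM and 8.39 in HE YS, with counts in 15 of 21 c5 cells and 4 of 37 YS progenitors. In HE AGM 3 counts correspond to 0.901 CPM, so the level of Dlk1 there was near the floor. Dlk1 is also on the list of mesenchymal markers, of which Ptn, Col1a1, Col1a2, Col3a1, Pdgfra, Lum and Twist1 were at 0 in all 58 cells. The study had removed YS cells high in Dlk1 and Ptn as potential mesenchymal cells, and left out the AGM mesenchymal population. The part of that selection in the levels of Dlk1 was not tested.

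Kif2a, a kinesin that takes microtubules apart, had a log2 ratio of 1.38 in progenitors (1.84, 0.58 and 1.34 in the runs) and of -1.17 in HE (-2.11, -0.79 and -1.09). Its levels were 53.0 CPM in c5, 20.2 in YS progenitors, 10.8 in HE AGM and 24.6 in HE YS. For both genes the difference between progenitors and HE was not tested, since each population counted as 1 sample.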

How the results depend on the processing

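No paired analysis was possible because each population counted as 1 sample and replicate numbers only name cells. With DESeq2 size factors, over the same genes, 689 were lower in c5 in place of 1107. In the following settings fewer or more genes entered by construction, since the minimum was changed or was applied to other or fewer counts. With cells thinned to the limit 479 were higher and 672 lower, and with at least 200 summed counts 429 and 469. With at least 1 count 6089 were higher and 4689 lower. With the minimum set on the HE cells, added after seeing the data, these were 2797 and 1856. Without run 3, 803 were higher. Leaving out each of the 58 cells in turn gave 1316 to 1478 genes higher and 1066 to 1122 lower. Genes with an isoform difference over 0.1 numbered 220 with at least 50 counts per run and 318 with coding transcripts only, in place of 571. Fewer genes entered in both settings, and the shares were 38.3% and 41.6%, in place of 47.1%. Genes whose ratio differed from that of HE by over 1 numbered 2183, 2531 and 2002 in runs 1, 2 and 3 alone, in place of 1207. In run 1 alone the difference in shares, c5 minus YS progenitors, was -5.50 percentage points for pseudogenes (-6.63 pooled) and 1.91 for ribosomal protein genes (2.38 pooled), and in run 2 alone 1.41 for mitochondrial genes (1.23 pooled) and -0.94 for decay transcripts (-0.74 pooled). The difference in genes detected per cell, 1198, was 470 with thinned cells and 1457 in run 2 alone. For 115 named genes 1265 ratios were recomputed, and a turned sign was counted only where the pooled ratio passed the limit of 1. This was so for 2 ratios, Gata2 in run 1 alone (-0.20) and Hbb-bt in run 3 alone (-0.09). Of 245 recomputed differences of 35 isoforms 0 turned sign, counted only where the pooled difference passed 0.1. Turned signs of smaller ratios and differences were not counted. Apart from the filters, the cause of these changes was not tested. Depth limits low genes most: 3 counts correspond to 1.99 CPM in c5 and 2.16 CPM in YS progenitors.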
